A study of Homo sapiens with 12 samples.

Results

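Tyrosine was followed as the last amino acid encoded before a premature stop codon in 2 reporter libraries for nonsense-mediated mRNA decay (NMD). Its members are the variants whose bases 4 to 6 are TAT or TAC, whose bases 7 to 9 are a stop codon and whose bases 1 to 3 are not a stop codon. The sequence alone chose them. The deposited tables list 1026 of 41955 variants of this kind for the EJC-independent reporter and 1235 of 51306 for the EJC-enhanced reporter. This is 70.1% and 84.4% of the 1464 tyrosine variants that the design allows in each reporter. A mean normalized count of at least 10 was met by 1019 and 1234 of them, so 7 and 1 were left out for low counts. The same contexts with the tryptophan codon TGG in place of the stop codon served as controls without a stop, with 376 variants in the EJC-independent reporter and 460 in the EJC-enhanced reporter.

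The cells were HEK293T, a human embryonic kidney line labelled wild type apart from the reporter, with a library of either reporter integrated by Cre-Lox recombination at a single genomic location. They received SMG1i, an inhibitor of the kinase SMG1, at 0.5 µM for 24 h, or the vehicle DMSO for 24 h, and total RNA was collected. Each reporter has 3 SMG1i libraries and 3 DMSO libraries, 12 in all, and the labels do not say whether these come from separate cultures. The deposited tables give 1 comparison of SMG1i with DMSO per variant and no value per library, so every error below runs over variants or comes from the deposited standard errors. The p-values therefore measure how sequences differ within these libraries, not how cultures differ. All variants are known by their 10 bases within the reporter: penultimate codon (bases 1 to 3), last codon (4 to 6), stop codon or TGG (7 to 9) and base 10. The sources used here do not give the genome coordinates of the integration or the exon that holds the window.

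NMD degrades mRNAs on which translation ends too early. When a ribosome reaches a stop codon, the last amino acid of the chain is held on its tRNA in the ribosomal P site, and the release factor eRF1 enters the A site and cuts the ester bond between chain and tRNA, a step called peptidyl-tRNA hydrolysis. SMG1 phosphorylates UPF1, the central helicase of NMD, so that its inhibition raises the RNA of NMD targets. An exon junction complex (EJC) downstream of the stop codon enhances NMD, and EJC-independent targets are decayed without that aid. The series asks whether the rate of peptidyl-tRNA hydrolysis, which is known to vary with the last amino acid, bears on how well NMD works. Tyrosine is an aromatic amino acid whose codons TAT and TAC differ only in the third base.

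Response here means log2 of SMG1i over DMSO for the RNA of a variant, relative to the scaling of its own table. The deposited tables do not state its direction. The deposited log2 fold change was used with its sign reversed, as described with the processing. Responses and calls of higher or lower credited below to the authors' deposited tables all carry this reversal. One context per stop codon was chosen by depth alone, as the one whose TAT, TAC and control variants had the highest smallest mean count over both reporters, and these are shown because they carry the tyrosine response with the least counting error. The last codon is in capitals.
Tyrosine TAT before TAA: ctcTATtaac
Tyrosine TAC before TAA: ctcTACtaac
Controls of these contexts: ctcTATtggc and ctcTACtggc
Tyrosine TAT before TAG: cccTATtagc
Tyrosine TAC before TAG: cccTACtagc
Serine TCC before TAG, which differs from TAC in the middle base: cccTCCtagc
Histidine CAC before TAG, which differs from TAC in the first base: cccCACtagc
Tyrosine TAT before TGA: cccTATtgac
Tyrosine TAC before TGA: cccTACtgac
Controls of the contexts with penultimate CCC: cccTATtggc and cccTACtggc

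In the EJC-independent reporter the authors' deposited table gives ctcTATtaac a response of 1.41 (standard error 0.090) and ctcTACtaac a response of 1.37 (0.083). Their controls ctcTATtggc (standard error 0.080) and ctcTACtggc (0.14) both stood at 0.01 in the authors' deposited table. Before TAG, cccTATtagc had 1.44 (0.11) and cccTACtagc 1.46 (0.052) in the authors' deposited table, the second of these on a mean normalized count of 10462, the highest of any tyrosine stop variant. Before TGA the same table gives cccTATtgac 1.59 (0.12) and cccTACtgac 1.66 (0.076). The control cccTATtggc stood at -0.16 and cccTACtggc at 0.21 in the authors' deposited table. All 6 deep tyrosine stop variants thus lay between 1.37 and 1.66, and none of their 4 controls exceeded 0.21. In the EJC-enhanced reporter the authors' deposited table gives the same 6 variants responses of 2.42, 2.39, 2.64, 2.32, 2.08 and 2.68, with standard errors between 0.28 and 0.38.

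The neighbours of these sequences differ by 1 base in the last codon. Within the EJC-independent reporter the authors' deposited table gives cccTCCtagc a response of 1.84 (0.055), and cccTACtagc was lower than it, with a difference of -0.39 (standard error 0.075, two-sided normal test with the deposited errors combined, adjusted p = 1.21e-05 over 39 such comparisons). Histidine in the same place, cccCACtagc, had 1.54 (0.057), and the difference from cccTACtagc did not pass. The 39 comparisons over the 3 deep contexts are 36 of TAT or TAC with a codon of another amino acid and the rest of TAT with TAC. Tyrosine was lower in 26 of the 36. Of all 39 comparisons 8 passed at an adjusted p under 0.05, all lower for tyrosine: 5 against serine, 2 against aspartate and 1 against asparagine. No control was subtracted in these comparisons. The serine controls also stood above those of tyrosine: ctcTCCtggc 0.21 against 0.01, cccTCTtggc 0.09 against -0.16 and cccTCCtggc 0.25 against 0.21. The aspartate controls ctcGACtggc (-0.20) and cccGACtggc (-0.08) and the asparagine control cccAACtggc (-0.07) stood below those of TAC. In the EJC-enhanced reporter 10 of 36 were lower for tyrosine, and 0 of 39 passed (0 at an unadjusted p under 0.05 as well). The standard errors of these differences were 0.37 to 0.63, against 0.075 to 0.32 in the EJC-independent reporter. With such errors, gaps of the size that passed in the EJC-independent reporter could not have passed. The 0 of 39 therefore does not show that such gaps are absent.

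Across all members, tyrosine stop variants had 2.67-fold more RNA under SMG1i than under DMSO in the EJC-independent reporter, a mean response of 1.42 ± 0.57 (SD, n = 1019 variants), with a median of 1.41 and a range of -1.90 to 4.07. Stop variants with another last codon averaged 1.73 ± 0.62 (SD, n = 27945 variants), or 3.32-fold. In the EJC-enhanced reporter tyrosine stop variants averaged 2.30 ± 0.76 (SD, n = 1234 variants), or 4.93-fold, with a median of 2.29, and other last codons averaged 2.29 (n = 33288 variants). Tyrosine contexts with TGG averaged -0.08 ± 0.52 (SD, n = 376) in the EJC-independent reporter and 0.03 ± 0.59 (SD, n = 460) in the EJC-enhanced reporter. Tyrosine therefore stood below the other last codons before a stop codon in the EJC-independent reporter and beside them in the EJC-enhanced reporter.

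By the deposited test, 796 of 1019 tyrosine stop variants were higher under SMG1i in the EJC-independent reporter (78.1%, in the authors' deposited table, adjusted p under 0.05), against a background of 84.9% over all stop variants of that table. In the EJC-enhanced reporter 1064 of 1233 with an adjusted p were higher (86.3%, in the authors' deposited table), against a background of 86.1%. None of the tyrosine stop variants was lower in either of the authors' deposited tables, where 3 (0.0104%) and 1 (0.00291%) of all stop variants were. Among tyrosine controls of the EJC-independent reporter, the authors' deposited table calls 7 of 376 higher and 19 lower, with a background over all controls of 4.09% higher and 4.03% lower. Among tyrosine controls of the EJC-enhanced reporter it calls 16 of 460 higher and 6 lower, with a background of 2.76% and 1.38%.

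The share of variants called moved with depth in the EJC-independent reporter, for tyrosine and for other last codons. The tyrosine variants were put into 4 equal bins by mean count. In the lowest bin (median count 33.2) the authors' deposited table calls 32.9% higher, in the next 79.5%, and in the upper 2 bins 100%. For other last codons within the same limits of mean count it calls 47.3%, 90.8%, 99.6% and 100%, so the trend with depth is not particular to tyrosine. The mean response of tyrosine was 1.41, 1.42, 1.44 and 1.41 in these bins, while the SD over variants was 0.98, 0.45, 0.30 and 0.22. The bins of the EJC-enhanced reporter averaged 2.18, 2.30, 2.41 and 2.32, with an SD of 1.02, 0.72, 0.64 and 0.55. The spread within tyrosine was close to that of the errors in the EJC-independent reporter. The deposited standard errors alone would give an SD of 0.56 in the EJC-independent reporter, which leaves 0.13 beyond them, and 0.66 in the EJC-enhanced reporter, which leaves 0.37. The same quantity for single codons of the other amino acids, around each codon's own mean, was 0.27 and 0.36. Among variants with a mean count of at least 500 it was 0.15 for tyrosine and 0.19 for the others in the EJC-independent reporter. In the EJC-enhanced reporter it was 0.16 for tyrosine and was set to 0 for the others. The SD of these others, 0.36, lay below the 0.39 that their deposited errors alone would give, so no order can be read there. These are descriptions without a test, and they rest on the deposited standard errors.

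Each tyrosine stop variant was also set against the TGG variant with the same 6 bases and the same base 10, which removes what both share. For the EJC-independent reporter the stop variant exceeded its control by a mean of 1.48 over 880 pairs (2.79-fold, 95% interval 1.42 to 1.54, clustered by the 6 bases), and it was higher in 856 pairs. The mean over 23195 pairs with other last codons was 1.74. Of the tyrosine pairs 614 (69.8%) passed an adjusted p under 0.05 as higher, against 77.9% of all pairs, and 0 passed as lower, against 0.0457%. Within the EJC-enhanced reporter tyrosine pairs differed by 2.26 (1201 pairs, 4.79-fold, interval 2.19 to 2.33), higher in 1179 pairs, and other last codons also by 2.26. Here 924 tyrosine pairs (76.9%) passed as higher, against 78.6% of all pairs, and 0 as lower, against 0.0245%.

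The question of how tyrosine stands among the amino acids was put to a single fit per reporter, with terms for last codon, penultimate codon, stop codon and base 10 over all stop variants. The effect of an amino acid against the others is the mean of its codons minus the mean of all other sense codons. Each codon has the same weight, so amino acids with more codons weigh more in that reference. In the EJC-independent reporter tyrosine was lower than the other amino acids, with an effect of -0.32 (standard error 0.021, 95% interval -0.36 to -0.28, adjusted p = 2.70e-51 over 20 amino acids), the lowest of the 20 estimates in that fit. Next came phenylalanine, which lacks only the hydroxyl group of tyrosine, at -0.25, histidine at -0.24 and glutamine at -0.22. For the EJC-enhanced reporter the estimate for tyrosine was 0.02 (standard error 0.024, interval -0.03 to 0.06, adjusted p = 0.720), with 5 of the 20 estimates above it. The difference between the reporters in this tyrosine effect was itself tested: EJC-independent minus EJC-enhanced was -0.34 (standard error 0.032, interval -0.40 to -0.27, n = 28964 and 34522 stop variants, p = 9.57e-26, two-sided normal test). Of these variants 1019 and 1234 had tyrosine, and the p-value runs over sequences, not over cultures. Of all 20 amino acids, 8 had a lower and 5 a higher effect in the EJC-independent reporter by the same test (adjusted p under 0.05 over 20), among them phenylalanine at -0.24, histidine at -0.23 and glycine at 0.43, so a difference between reporters is not particular to tyrosine.

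The controls without a stop codon gave a smaller estimate of the same sign in the EJC-independent reporter. Tyrosine before TGG minus other last codons was -0.06 (interval -0.11 to -0.01, n = 10272 controls, p = 0.0287, adjusted p = 0.287 over 20 amino acids), and in the EJC-enhanced reporter it differed by 0.01 (interval -0.05 to 0.06, adjusted p = 0.887). The difference between reporters in the controls was -0.06 (interval -0.14 to 0.01, n = 10272 and 13093 controls, p = 0.101). With each variant's matched control subtracted, the tyrosine effect in the EJC-independent reporter was -0.26, and it still passed.

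Against each of the other 19 amino acids in turn, tyrosine was lower in the EJC-independent reporter in 19 of 19 comparisons that passed an adjusted p under 0.05. The gap was smallest to phenylalanine, at -0.06 (interval -0.11 to -0.01, adjusted p = 0.0135), to histidine at -0.08 (adjusted p = 0.00299) and to glutamine at -0.10 (adjusted p = 0.00195). It was largest to glycine, at -0.71 (interval -0.77 to -0.66, adjusted p = 3.85e-130), and to threonine, at -0.67 (adjusted p = 2.01e-152). Relative to glycine, the smallest amino acid, a tyrosine codon thus went with 0.609 times the ratio of RNA between the treatments. With matched controls subtracted, 12 of 19 passed, and the gaps to phenylalanine (adjusted p = 0.102), histidine (0.545) and glutamine (0.389) did not. The gap to phenylalanine was also lost with inverse variance weights, at -0.02 (adjusted p = 0.174).

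Within the EJC-enhanced reporter 0 of 19 comparisons passed, and 1 had an unadjusted p under 0.05, against arginine at 0.07 (interval 0.01 to 0.12, adjusted p = 0.365). All 19 estimates lay between -0.05 and 0.09. With a linear term for the log2 mean count in the fit, tyrosine passed as lower than 5 amino acids and as higher than 4 in this reporter. Tyrosine minus glycine was 0.01 there (interval -0.05 to 0.07), a range that does not reach the gap seen in the EJC-independent reporter.

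Within single contexts the same order was seen. For each penultimate codon, stop codon and base 10 with at least 20 last codons listed, tyrosine was compared with the mean of the other last codons of that context. In the EJC-independent reporter 793 of 985 tyrosine variants (80.5%) lay below that mean, with a median gap of -0.29, while 50.4% of the variants with other last codons lay below the mean of theirs. The median tyrosine variant stood at 24.0% of the way up the ranks of its context, and 43 of the 985 (4.37%) were the lowest of their context, against 2.29% of the variants with other last codons. Among variants with a mean count of at least 100, 12 of 679 tyrosine variants (1.77%) were the lowest, against 0.516% of the others. These shares were not tested. Of TAT variants 79.2% lay below, and of TAC variants 81.7%. For the EJC-enhanced reporter 618 of 1226 (50.4%) lay below, against 51.2% of the others, and the median tyrosine variant was in the middle of the ranks.

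For sequences listed in both reporters, the scale of each table enters the comparison, so only the place of tyrosine beside the others is given. The response in the EJC-independent reporter minus that in the EJC-enhanced reporter averaged -0.95 over 936 tyrosine sequences and -0.60 over 25235 sequences with other last codons. It was below 0 in 836 tyrosine sequences (89.3%) and in 78.9% of the others. Across the 936 tyrosine sequences the responses in the 2 reporters had a Pearson correlation of -0.07 and a Spearman correlation of -0.02, a description across sequences measured in the same libraries. Across the 25235 sequences with other last codons both correlations were 0.01, so a value near 0 is not particular to tyrosine. Among all tyrosine variants the SD beyond the deposited errors was 0.13 beside a total SD of 0.57 in the EJC-independent reporter. In the EJC-enhanced reporter it was 0.37 beside 0.76. Errors of this size pull a correlation towards 0. The correlations therefore do not show whether the reporters rank tyrosine sequences alike.

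The synonymous codons were then set beside each other. In the EJC-independent reporter TAT averaged 1.39 ± 0.61 (SD, n = 473 variants) and TAC 1.44 ± 0.54 (SD, n = 546 variants), and in the fit TAT minus TAC was -0.05 (interval -0.13 to 0.03, adjusted p = 0.237). Within the EJC-enhanced reporter TAT averaged 2.29 ± 0.84 (SD, n = 578) and TAC 2.31 ± 0.68 (SD, n = 656), with a difference of -0.01 (interval -0.11 to 0.08, adjusted p = 0.798). The difference between TAT and TAC passed before 0 of 3 stop codons in either reporter, and 0 of the 3 had an unadjusted p under 0.05 in either. TAT variants were less deep than TAC variants, with a median mean count of 168 against 283 in the EJC-independent reporter. The authors' deposited table calls 72.7% of TAT and 82.8% of TAC variants higher there, against the background of 84.9%, and the part of depth in these shares was not tested.

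Codons of other amino acids that differ from TAT or TAC by 1 base, with the third base kept, gave 12 further comparisons per reporter. For the EJC-independent reporter all 12 estimates were negative, and 9 passed as lower for tyrosine. The wide gaps were to aspartate, which differs in the first base, and to serine, which differs in the middle base. TAT minus GAT was -0.44 (interval -0.54 to -0.34, adjusted p = 1.45e-17) and TAC minus GAC was -0.34 (adjusted p = 6.38e-17). TAT minus TCT was -0.43 (adjusted p = 1.39e-30) and TAC minus TCC was -0.36 (adjusted p = 7.15e-30).

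Cysteine and asparagine lay nearer. TAT minus TGT was -0.12 (adjusted p = 0.00739) and TAC minus TGC -0.13 (0.00254), while TAT minus AAT was -0.16 (0.00507) and TAC minus AAC -0.11 (0.00541). The histidine codons CAT and CAC gave -0.09 (adjusted p = 0.0337) and -0.06 (0.0635), and the phenylalanine codons TTT and TTC gave -0.08 (0.0661) and -0.05 (0.126). With matched controls subtracted 4 of the 13 comparisons passed. For the EJC-enhanced reporter 0 of 13 passed, 1 had an unadjusted p under 0.05, and the estimates ran from -0.07 to 0.07.

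Differences between stop codons after tyrosine were called or not depending on the kind of error and the setting. Within the EJC-independent reporter tyrosine averaged 1.40 ± 0.56 before TAA (SD, n = 355 variants), 1.38 ± 0.58 before TAG (n = 336) and 1.48 ± 0.57 before TGA (n = 328). Within tyrosine, TGA exceeded TAG by 0.11 (interval 0.02 to 0.19) and TAA by 0.09 (interval 0.01 to 0.17), both with an adjusted p = 0.0390. With errors taken over single variants the adjusted p-values were 0.0567 and 0.0633, so neither call holds under both kinds of error. With clustered errors both passed at a mean count of at least 50 (adjusted p = 0.00119 each), with inverse variance weights (1.51e-05 each) and with matched controls subtracted (0.00581 and 0.0412). After other last codons TGA exceeded TAG by 0.21. The difference of the 2 gaps, -0.10 (interval -0.19 to -0.02), had an adjusted p = 0.0525, and 0 of 3 such differences passed, with 1 at an unadjusted p under 0.05. Among variants with a mean count of at least 50, and with inverse variance weights, 2 of 3 passed.

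Tyrosine was lower than the other last codons before each stop codon in the EJC-independent reporter, with effects of -0.31 before TAA (interval -0.37 to -0.25), -0.27 before TAG (interval -0.34 to -0.21) and -0.38 before TGA (interval -0.44 to -0.31), and all 3 passed. The corresponding values in the EJC-enhanced reporter were 0.03, -0.01 and 0.02, and 0 of 3 passed or had an unadjusted p under 0.05. There tyrosine averaged 2.33 ± 0.74 before TAA (SD, n = 425), 2.25 ± 0.78 before TAG (n = 407) and 2.32 ± 0.74 before TGA (n = 402), and 0 of 3 differences between stop codons passed, with none at an unadjusted p under 0.05.

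Base 10, the first base after the stop codon, is known as part of the termination signal. For the EJC-independent reporter tyrosine averaged 1.43 with A (n = 224 variants), 1.36 with C (n = 312), 1.48 with G (n = 219) and 1.42 with T (n = 264). Each base was compared with the mean of the other 3, and 0 of 4 passed, with C at -0.08 the only one at an unadjusted p under 0.05 (adjusted p = 0.135). With inverse variance weights C passed, at -0.07 (adjusted p = 0.00130), and with matched controls subtracted it was -0.0024 (adjusted p = 0.967). Tyrosine was lower than other last codons with each base in this reporter, with effects of -0.36 with A, -0.34 with C, -0.25 with G and -0.31 with T, and all 4 passed.

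Within the EJC-enhanced reporter tyrosine averaged 2.42 with A (n = 272), 2.30 with C (n = 353), 2.22 with G (n = 291) and 2.27 with T (n = 318). A was higher than the other bases by 0.15 (interval 0.04 to 0.26, adjusted p = 0.0218), and G was lower, at -0.11 (interval -0.21 to -0.02, adjusted p = 0.0326). With the term for mean count A was larger, at 0.23 (adjusted p = 8.05e-05). G was lost with errors over single variants (adjusted p = 0.0553) and with the term for mean count (0.168), and both were lost with matched controls subtracted (adjusted p = 0.116 for each). Neither reporter had a base whose effect within tyrosine differed from that within other last codons, with 0 of 4 passing in each. At an unadjusted p under 0.05 there were 0 of 4 in the EJC-independent reporter and 1 of 4 in the EJC-enhanced reporter, A at 0.12 (adjusted p = 0.109).

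The penultimate codon varied the tyrosine response little that could be told from error. Each penultimate amino acid rests on 2 to 12 contexts of 6 bases, and errors clustered over so few contexts run too small, so a difference is called only where errors over single variants pass as well. Within the EJC-independent reporter the highest means were after methionine at 1.79 (n = 9 variants), tyrosine at 1.62 (n = 37) and proline at 1.54 (n = 94). The lowest were after isoleucine at 1.26 (n = 48), aspartate at 1.28 (n = 28) and valine at 1.29 (n = 58). None of the 20 differences passed both errors, although methionine passed with clustered errors alone, at 0.39. The methionine difference depended on the setting, at 0.00 with inverse variance weights and 0.77 with matched controls subtracted.

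For the EJC-enhanced reporter the highest means were after alanine at 2.50 (n = 86), histidine at 2.43 (n = 48) and tyrosine at 2.42 (n = 43), and the lowest after lysine at 1.64 (n = 22), methionine at 2.02 (n = 14) and glutamate at 2.12 (n = 27). Alanine was the only one of 20 to pass both errors, higher than the other penultimate amino acids by 0.27 (interval 0.15 to 0.39, adjusted p = 3.02e-04 clustered and 0.0128 over variants). Its difference from the same quantity after other last codons, 0.23, passed with clustered errors (adjusted p = 0.00553) and not over variants (0.0771). The dipeptide of 2 tyrosines, tyrosine after tyrosine, was among the 3 highest in both reporters, at 0.20 and 0.17 above the other penultimate amino acids, and passed both errors in neither. Of 20 differences between tyrosine and other last codons in the effect of the penultimate amino acid, 0 passed both errors in either reporter. With clustered errors alone 1 passed in each, and 4 in the EJC-independent and 3 in the EJC-enhanced reporter had an unadjusted p under 0.05.

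Single tyrosine variants are imprecise, and the extremes are shown to say how far they reach. Among 693 variants of the EJC-independent reporter with a mean count of at least 100, the 3 lowest and the 3 highest were the following.
Lowest: atcTATtaaa
Lowest but 1: tcaTACtagc
Lowest but 2: atgTACtagc
Highest: tctTATtgat
Highest but 1: ggcTACtgac
Highest but 2: ggcTACtaat
The authors' deposited table gives the 3 lowest responses of 0.21 (standard error 0.57), 0.37 (0.12) and 0.40 (0.33), and the 3 highest responses of 2.83 (0.50), 2.56 (0.31) and 2.41 (0.42). No matched control was available for atcTATtaaa, and that of atgTACtagc stood at -0.62 (0.61). The controls of the 3 highest stood at 0.21, 0.25 and 0.04. The outermost values mostly have wide errors, apart from tcaTACtagc, whose mean normalized count was 1557.

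The relatives of the variant tcaTACtagc were looked up after its value was seen. In the authors' deposited table the response of tcaTACtagc, 0.37, was the lowest of 52 last codons between tca and tagc, whose median was 1.55. It was picked for its low response, so this rank is no separate support. With the same 6 bases and another base 10, tcaTACtagt had 1.37 and tcaTACtagg 1.37, and with the synonymous codon tcaTATtagc had 1.41, all in the authors' deposited table. Its control tcaTACtggc stood at -0.28 (standard error 0.33) there, and the same sequence in the EJC-enhanced reporter had 2.67 (0.40). In the EJC-independent reporter some shallow relatives were also low with wide errors. These included tcaTGGtagc at 0.51 (0.79), tcaTATtaga at 0.67 (0.83), tcaTATtgat at 0.69 (0.57) and tcaTACtaaa at 0.73 (0.79). Another shallow relative was high, tcaTATtgaa at 2.71 (0.56). The control tcaTACtgga stood at -3.21 (0.98) on a mean count of 23.3. Whether the low value belongs to tcaTACtagc alone cannot be told from these relatives, and what sets it apart was not tested.

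Among 750 variants of the EJC-enhanced reporter with a mean count of at least 100, the 3 at each end were these.
Lowest: gtcTACtaat
Lowest but 1: actTATtagc
Lowest but 2: ctgTACtaac
Highest: tgtTACtagc
Highest but 1: catTATtagg
Highest but 2: cgaTACtgaa
The authors' deposited table gives the 3 lowest responses of -0.29 (standard error 1.39), 0.60 (0.86) and 0.62 (0.62), and the 3 highest responses of 5.07 (0.79), 4.62 (0.63) and 4.32 (0.71). The controls of the 3 lowest stood at 0.13, -0.25 and 0.35. Those of the 3 highest stood at 0.38, 1.47 (standard error 1.06, mean count 35.0) and 0.39. None of the 3 lowest had a deposited adjusted p under 0.05. For the EJC-independent reporter the authors' deposited table gives the same 6 sequences responses of 2.02, 1.33, 1.20, 1.45, 1.10 and 1.96. All 6 lay between 1.10 and 2.02 there, and the 3 from the low end of the EJC-enhanced reporter overlapped with the 3 from its high end. Since the 6 were picked as extremes of imprecise values, a narrower range elsewhere follows in part from the selection. In the EJC-enhanced reporter the 3 lowest of the EJC-independent reporter had 1.98, 2.67 and 2.34, and its 3 highest had 2.58, 2.44 and 2.63.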

How the data were processed

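Reporter RNA was sequenced from 12 HEK293T libraries, 3 per group. The authors deposited 1 table per reporter. Per the file headers the columns are, for each variant, a mean normalized count (a signal over libraries, scaled by the authors), the log2 fold change and its error, a Wald score and p-values before and after adjustment. The submitters' processing notes name DESeq and DESeq2, and the sources used here give no version and no read processing. No deposited column holds values per library (0 such columns), and depth per library is unknown. The deposited mean counts of all variants sum to 31033950 (EJC-independent) and 18874316 (EJC-enhanced), the median tyrosine stop variant has 231 and 134, and its median standard error is 0.34 and 0.57. The tables do not state the numerator. As deposited, stop variants are negative, so the sign was reversed and a positive response taken as more RNA under SMG1i. With the opposite numerator all signs would turn. The tables were scaled apart, so only differences within a table are tested between reporters.

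From these values ordinary least squares was fitted over all stop variants with a mean count of at least 10 and no in-frame stop codon in bases 1 to 6, with terms for last codon, penultimate codon, stop codon and base 10. Errors were clustered by the 6 bases, tests were two-sided normal, and Benjamini-Hochberg adjustment ran within each family and reporter. Tyrosine by stop codon, base 10 and penultimate amino acid were added as interaction terms. The fits were run on simulated responses of the EJC-independent variants, to check that mean estimates lay near the set effects. The tolerance was wider than the smallest gaps given above, and no limit was set on the intervals. The check therefore lends no support to the p-values. Python 3.11.15, numpy 2.4.6, pandas 2.3.3 and scipy 1.17.1 were used. Variants named are the 3 highest and 3 lowest with a mean count of at least 100 and 1 context per stop codon chosen by depth, with relatives of tcaTACtagc and codons of lysine added after their values were seen. Members, lists and tests were chosen with earlier results of these data known. Alternatives were other count minimums, weights, error clusters, a term for mean count, subtraction of matched controls and a median over contexts.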

Additional observations from a re-analysis of the deposited data

Results flagged for a closer look

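The tyrosine effect differed between the reporters, by a test of the difference itself. Tyrosine minus the other amino acids, EJC-independent minus EJC-enhanced, was -0.34 on the log2 scale (two-sided normal test, n = 28964 and 34522 stop variants, p = 9.57e-26), with -0.32 in the EJC-independent reporter and 0.02 in the EJC-enhanced reporter. Such differences were not particular to tyrosine: of 20 amino acids 13 passed the same test (adjusted p under 0.05 over 20), with phenylalanine at -0.24, histidine at -0.23, threonine at 0.33 and glycine at 0.43. By stop codon, over the same n = 28964 and 34522 variants, the tyrosine difference was -0.34 before TAA (p = 1.73e-12), -0.26 before TAG (p = 2.00e-07) and -0.40 before TGA (p = 2.90e-15). Of these variants 1019 and 1234 had tyrosine as last codon, over all 3 stop codons. All p-values given here run over sequences within the same libraries, not over cultures. In the TGG controls the difference was -0.06 (n = 10272 and 13093 controls, p = 0.101). The reporters also differ in depth, in the deposited errors and in scaling, which cannot be told apart from the reporter here. Within 4 equal bins of stop variants by mean count the tyrosine effect was -0.34, -0.34, -0.30 and -0.30 in the EJC-independent reporter. In the EJC-enhanced reporter the uncalled estimate changed sign in some bins, as given below. Bins were taken within a reporter, so depth was not matched between the reporters.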

How the results depend on the processing

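No paired analysis was possible because the tables hold no value per library, so left-out replicates, a replicate block and another normalization were not run either. In the EJC-independent reporter tyrosine minus the other amino acids ran from -0.34 to -0.26 over 12 alternatives and passed in each that has a test, and the difference between reporters ran from -0.34 to -0.26 over 7. In the EJC-enhanced reporter the uncalled estimate of 0.02 turned to -0.037 in the second and -0.018 in the fourth of 4 bins of stop variants by mean count, and to -0.0072 as a median over matched contexts. Also there, uncalled signs turned for TAT minus TAC (0.061 at a mean count of at least 50, 0.055 with the term for mean count), for tyrosine before TAG (0.019 at 50) and for tyrosine before TGA (-0.013 at 50, -0.019 with weights and -0.020 with matched controls subtracted).

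Counts of calls moved as follows. With matched controls subtracted, which leaves fewer variants, 12 of 19 amino acids and 4 of 13 codon comparisons passed in the EJC-independent reporter. With the term for mean count, 5 of 19 (and 4 as higher) and 2 of 13 passed as lower for tyrosine in the EJC-enhanced reporter. Of 3 stop codon differences from other last codons, 2 passed in the EJC-independent reporter at a count of at least 50 and 2 with weights. Of 20 penultimate differences from other last codons, 1 passed in each reporter with clustered errors. In the EJC-independent reporter this became 2 at a count of at least 50, 6 with weights, 6 with errors clustered by penultimate codon, 2 with matched controls subtracted and 0 with errors over single variants. In the EJC-enhanced reporter it became 2, 3, 6, 4 and 0 in the same order. The cause was not tested. Of 139 alternatives of the main results, 46 were single effects that kept their direction and, where tested, their call, and 74 were counts within 1.5 times of the reported count, 9 of them not equal to it (with weights, for instance, 18 of 19 amino acids). Errors over single variants and the bins by mean count were added after seeing the data. Single variants were imprecise, most of all in the EJC-enhanced reporter, and there not at low depth alone. Among tyrosine variants with a mean count of at least 500 the median standard error was 0.36 in that reporter. It was 0.16 in the EJC-independent reporter. What widens these errors was not tested.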

Other observations

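Tyrosine after the penultimate lysine codons AAG and AAA had different means in the EJC-enhanced reporter, a split looked at after its values were seen and given without a test. Tyrosine variants after AAG averaged 1.10 ± 1.01 (SD, n = 14 variants of 2 contexts), and those after AAA averaged 2.58 ± 1.08 (SD, n = 8 variants), while other last codons averaged 2.12 after AAG and 2.16 after AAA. All of these tyrosine variants are shallow, with a median mean count of 50.3 after AAG and 43.1 after AAA. In the EJC-independent reporter tyrosine averaged 1.62 after AAG (n = 5 variants) and 1.41 after AAA (n = 7 variants). In the EJC-enhanced reporter the controls with TGG averaged -0.11 ± 0.69 after AAG (SD, n = 7 variants) and 0.11 ± 1.27 after AAA (SD, n = 6 variants). In the EJC-independent reporter they averaged -0.44 after AAG and -0.16 after AAA (n = 2 variants each). For penultimate lysine as a whole, the difference from the other penultimate amino acids within tyrosine was -0.64 and did not pass (adjusted p = 0.195 clustered, 0.130 over variants).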
